A study of Mus musculus with 11 samples.

Results

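The semaphorin, netrin and ephrin guidance genes were followed in marrow stromal cells of mice treated with doxorubicin, an anthracycline chemotherapy drug that traps topoisomerase II on DNA. Members were chosen by symbol alone: semaphorins of classes 3 to 7, plexins, neuropilins, netrins, the netrin receptors Dcc, neogenin (Neo1) and Unc5, ephrins, and Eph receptors. The members number 60 of the 24718 genes counted, and 54 of them had enough counts to be tested. The libraries came from 11 female mice of genotype Lepr-Cre;LSL-tdTomato+/-, in which Cre driven by the leptin receptor gene turns on a red reporter; controls carry both alleles too. Stromal stem and progenitor cells were sorted from flushed, digested marrow on tdTomato, so the cells share a history of Lepr expression and may differ in state. The PBS group (4 mice) had 4 intravenous injections of phosphate-buffered saline. The DOX1X group (3 mice, young adults) had 1 intravenous dose of doxorubicin at 10 mg/kg, and the DOX4X group (4 mice, 8 to 10 weeks old) had 4 doses at 5 mg/kg, 1 week apart. Cells were collected 8 weeks after treatment. The comparisons ask what each regimen leaves behind in these cells. DOX1X and PBS also differ in the number of injections.

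Guidance molecules were first studied as cues for growing axons, and the same ligands and receptors act on vessels, bone and immune cells. Semaphorins signal through plexins; secreted class 3 semaphorins mostly need a neuropilin as the ligand-binding partner. Netrins bind Dcc, neogenin and the Unc5 receptors. Ephrins are tethered to the cell surface, so they act on Eph receptors of a touching cell, and they also signal back into the cell that carries them. In bone, Sema3a acts on osteoblasts and osteoclasts through neuropilin 1, Sema4d is made by osteoclasts, and the pair of Efnb2 and Ephb4 links osteoclasts with osteoblasts.

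Total counts per library lay between 29540422 and 42784036 in PBS, 33496356 and 42002065 in DOX1X, and 31129352 and 36888310 in DOX4X. The members together held 0.263 to 0.312% of the counts in PBS, 0.270 to 0.291% in DOX1X and 0.283 to 0.297% in DOX4X. Markers of the labelled cell type were high throughout: over the 11 libraries Cxcl12 lay between 46059 and 59804 CPM (TMM-scaled CPM), Lepr between 3939 and 7661 and Kitl between 950 and 1299. The endothelial genes Pecam1 (10.6 to 65.5 CPM) and Kdr (14.98 to 205), the B cell gene Cd79a (10.9 to 65.1) and the leukocyte gene Ptprc (11.6 to 33.6) were low but not at 0. By the column names, flow cell 1 carried all PBS libraries with DOX1X 1 and 2, and flow cell 2 carried DOX1X 3 with all DOX4X libraries. Flow cell and the DOX4X against PBS difference can therefore be separated only through the DOX1X libraries. The labels of PBS 4 disagree: the title opens with DOX, but the treatment and library name are those of a control. Calls, medians over the members and overlaps of named members that change without it are given.

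In PBS cells the neuropilins and Efnb1 stood highest. On the scale of CPM per kb of exon in PBS, Nrp1, co-receptor of class 3 semaphorins and of VEGF, stood at 76.2 ± 7.68 (SD, n = 4), ahead of every other member by more than the summed SDs of the neighbours. The ephrin Efnb1 followed at 41.9 ± 5.64 and Nrp2 at 36.2 ± 5.70. Nrp1 alone took 20.2 to 28.4% of all member counts over the 11 libraries and Nrp2 took 11.02 to 15.4%. Of the 59 neighbouring pairs in the order of levels, 3 were apart by more than the sum of their SDs: Nrp1 above Efnb1, Nrp2 above Ephb4, and Plxnd1 above Plxna2. The order of the other neighbours is not resolved.

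Several receptors followed. Below Nrp2 came Ephb4, the receptor of Efnb2, at 21.7 ± 3.01 CPM per kb, Plxnb2, a receptor of class 4 semaphorins, at 21.0 ± 2.59, and Neo1, the receptor of netrins and of repulsive guidance molecules, at 20.3 ± 4.44. Plxnd1, which binds Sema3e directly, stood at 17.8 ± 2.29 and Plxna2, a partner of neuropilins, at 12.8 ± 1.02. Among semaphorins the transmembrane Sema6d (18.7 ± 2.27) and Sema4c (11.7 ± 2.88) were highest, followed by the lipid-anchored Sema7a (8.83 ± 3.83) and Sema5a (6.45 ± 0.73), whose extracellular part holds thrombospondin repeats. The A ephrins were led by Efna5 (11.6 ± 1.21) and Efna1 (10.8 ± 1.78), and the netrins by Ntn4, a basement membrane netrin, at 6.35 ± 3.28. The class 3 semaphorins, the ligands that neuropilins bind, all lay at or below 2.68 CPM per kb (Sema3b). Exon lengths are from GENCODE M21 on GRCm38, another build than the GRCm39 of the counts.

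**Figure D1:**
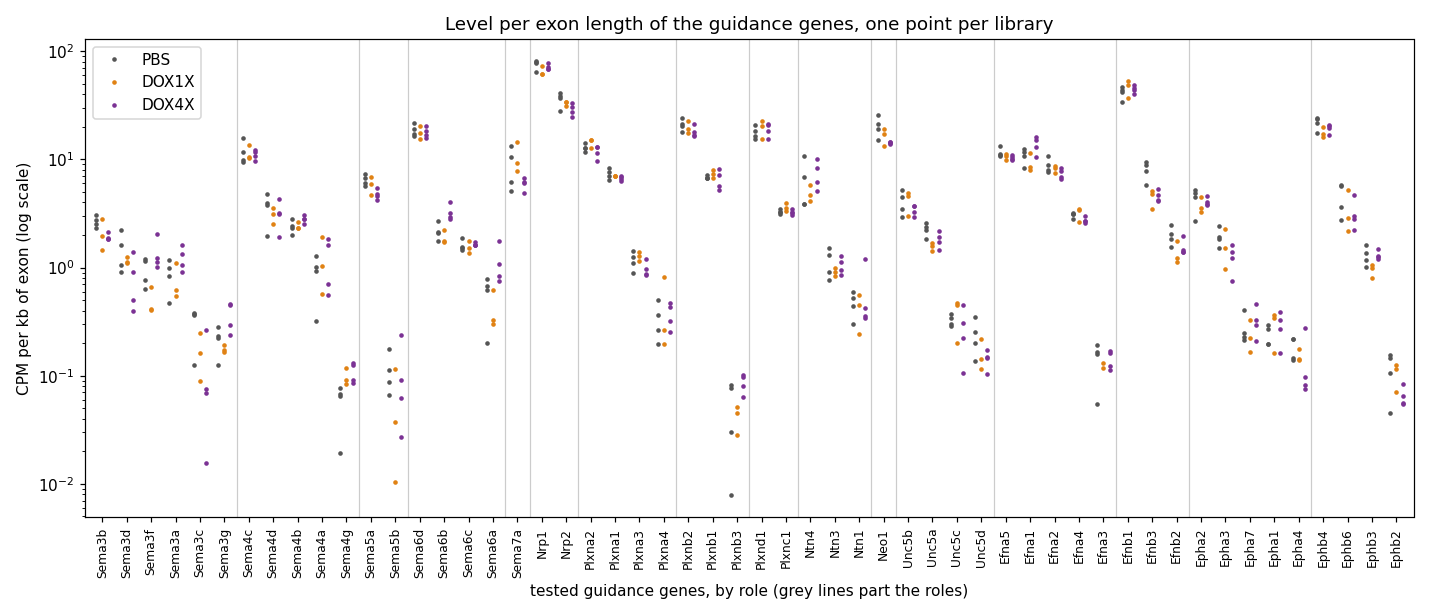
Level of each of the 54 tested guidance genes in CPM per kb of exon (log scale), grouped by role, with 1 point per library coloured by treatment group. Nrp1, at 76.2 CPM per kb on average in PBS, stands at the top in all 3 groups, and the class 3 semaphorins sit near or below 2.68.

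Several members of the families were near the floor of these libraries. Dcc, Epha5, Ephb1, Ntn5, Sema3e and Sema4f did not pass the filter on low counts. Dcc, the best known netrin receptor of axons, had 19 counts in PBS 4, 11 in DOX4X 4, 9 in DOX1X 1 and at most 4 elsewhere. Sema3e, the ligand of Plxnd1, had 29 counts in PBS 2 and at most 4 in any other library, and was at 0 in all 4 DOX4X libraries. The kit does not mark strand, so reads from exon bases shared with another gene of the table cannot be told apart. Among the members named here such bases are a minor part of the exons. Plxna1 shares 10.7% of its exon bases with Gm26811, Sema4c 7.27% with D430040D24Rik and Plxnb1 2.68% with Gm7628. Unc5a shares 0.816% with Hk3 and Ephb4 0.711% with Zan. Efnb3, Neo1, Sema5a and Sema3g overlap none.

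After 4 doses no guidance gene passed the threshold against PBS, and the smallest p values belonged to a B ephrin, a netrin receptor and 3 semaphorins. Efnb3, Neo1, Sema5a and Sema3b lay lower in all 4 DOX4X libraries than in all 4 PBS libraries, and Sema6b and Sema4g lay higher in all 4. With edgeR's quasi-likelihood test and Benjamini-Hochberg adjustment over 17838 genes, 0 of 54 members were called at 0.05, where 26 genes (0.146%) were called in the whole table. At an unadjusted p under 0.05 there were 13 members (24.1%), against 13.9% of all genes. Of these, 4 were higher (background 6% of genes) and 9 were lower (background 7.85%). Groups did not overlap for 2 higher members (background 3.17%) and 4 lower members (background 4.68%). The median log2 fold change was -0.10 over the members and 0.01 over all genes. That of the members was 0.03 with a flow cell term, under which 20 of the 54 took the other sign, and -0.20 with a covariate for endothelial markers. Without PBS 4 the median was -0.16 over the members and 0.025 over all genes. The flow cell term widened the standard errors, for example from 0.13 to 0.21 for Sema5a and from 0.41 to 0.76 for Sema6a. A turned sign in that fit can lie well within 1 standard error of 0. DESeq2 called 4 members, Efnb3, Neo1, Sema5a and Sema6b, with 599 genes (3.36%) called in all, and limma-voom called 0 (56 genes, 0.314%, in all).

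Efnb3, a transmembrane ephrin that binds EphB receptors and Epha4, had the smallest p of the set. It stood at 28.1, 24.8, 30.4 and 18.4 CPM in PBS 1 to 4. The values were 16.4, 11.1 and 15.3 CPM in DOX1X 1 to 3, and 13.2, 13.3, 14.98 and 17.1 CPM in DOX4X 1 to 4. All 7 doxorubicin libraries lay below the lowest PBS library, and the 2 doxorubicin groups overlapped. The mean was 25.4 ± 5.20 CPM (SD, n = 4) for PBS, 14.3 ± 2.78 (SD, n = 3) for DOX1X and 14.6 ± 1.79 (SD, n = 4) for DOX4X. The log2 fold change of DOX4X against PBS was -0.79 (SE 0.17, edgeR adjusted p = 0.10), rank 95 by p among all genes. Without PBS 4 it was -0.92 and past the threshold (edgeR adjusted p = 0.028). It was -0.95 with a flow cell term and -0.92 with the endothelial marker covariate. The other B ephrins had log2 fold changes of 0.09 (Efnb1) and -0.35 (Efnb2), and of 0.55 and -0.93 with the flow cell term.

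Neo1 and Sema5a were lower in DOX4X than in PBS without overlap, and their values also split the libraries by flow cell. Neo1 stood at 225, 166, 185 and 132 CPM in PBS 1 to 4, at 149, 168 and 116 in DOX1X 1 to 3 and at 122, 123, 125 and 127 in DOX4X 1 to 4. The DOX4X values sat within a narrow band below all PBS values, and DOX1X 3 sat below them. Its log2 fold change against PBS was -0.51 (SE 0.15, edgeR adjusted p = 0.18). Sema5a stood at 137, 112, 126 and 107 CPM in PBS, at 128, 111 and 87.0 in DOX1X and at 84.9, 79.3, 89.7 and 102 in DOX4X. Again DOX1X 3 lay with the DOX4X libraries, while DOX1X 1 and 2 lay among the controls. Its log2 fold change was -0.44 (SE 0.13, edgeR adjusted p = 0.18). For both genes all 5 libraries of flow cell 2 (116 to 127 CPM for Neo1, 79.3 to 102 for Sema5a) lay below all 6 of flow cell 1 (132 to 225 and 107 to 137). That pattern held for 2 of 54 tested members (3.70%) and for 210 of 17838 genes (1.18%); the opposite one held for 0 members and 92 genes (0.516%). With a flow cell term the log2 fold change was -0.07 (SE 0.27) for Neo1 and 0.022 (SE 0.21) for Sema5a. That term rests wholly on DOX1X 3 set against DOX1X 1 and 2.

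The RefSeq promoters of Neo1 and Sema5a (GRCm38.p6, the 250 bases before the annotated start site, 5′ to 3′ on the gene's strand) are shown because these genes shared the split by flow cell, with that of Sema3g, a low class 3 semaphorin described below, for contrast. Capitals mark GGGCGG, the core of the GC box, or its complement CCGCCC. Neo1 lies at chr9:59036442-59036691 on the minus strand, Sema5a at chr15:32244563-32244812 on the plus strand and Sema3g at chr14:31217623-31217872 on the plus strand.
Neo1: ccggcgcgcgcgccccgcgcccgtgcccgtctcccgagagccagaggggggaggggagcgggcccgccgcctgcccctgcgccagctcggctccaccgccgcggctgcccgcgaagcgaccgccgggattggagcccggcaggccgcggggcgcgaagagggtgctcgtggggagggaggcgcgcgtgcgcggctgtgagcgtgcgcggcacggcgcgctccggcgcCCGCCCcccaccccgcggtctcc
Sema5a: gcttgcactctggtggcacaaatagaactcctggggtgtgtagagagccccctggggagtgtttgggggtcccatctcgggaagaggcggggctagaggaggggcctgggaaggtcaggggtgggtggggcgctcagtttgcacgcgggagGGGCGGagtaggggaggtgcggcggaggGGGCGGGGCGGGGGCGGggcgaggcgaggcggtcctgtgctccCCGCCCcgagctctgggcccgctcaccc
Sema3g: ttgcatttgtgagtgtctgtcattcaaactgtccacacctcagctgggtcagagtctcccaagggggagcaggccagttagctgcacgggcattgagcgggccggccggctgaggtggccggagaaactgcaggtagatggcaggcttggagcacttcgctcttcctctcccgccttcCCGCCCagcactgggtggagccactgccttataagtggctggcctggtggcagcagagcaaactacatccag
The Neo1 stretch holds 45 CG pairs and is 83.2% G and C, the Sema5a stretch holds 17 (72.0%) and the Sema3g stretch 8 (60.4%). Searched on both strands, GGGCGG occurs 5 times before Sema5a, partly overlapping itself, and 1 time each before Neo1 and Sema3g. RefSeq promoters were found for 51 of the 60 members. Of their 65 listed promoters 73.8% hold GGGCGG, against 32.7% of all 32851 promoters of the same length. TATAAA is in 1 of the 65 (1.54%, against 12.4%) and the E box CACGTG in 2 (3.08%, against 6.02%). A match describes the letters and was not tied to any difference between groups.

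Among the other semaphorins, differences of both signs were found after 4 doses. Of 18 tested semaphorins 9 were higher and 9 lower (13 and 5 with a flow cell term). In each direction 4 had an unadjusted p under 0.05 (22.2%, background 6% higher and 7.85% lower). Sema6b, a transmembrane ligand of A plexins, stood at 8.37, 10.8, 8.51 and 7.005 CPM in PBS, at 6.95, 6.88 and 8.91 in DOX1X and at 11.7, 16.0, 11.2 and 12.6 in DOX4X. The 4 DOX4X libraries were the highest of the 11, with DOX4X 2 at the top. Its log2 fold change against PBS was 0.57 (SE 0.17, edgeR adjusted p = 0.19). A flow cell term brought it to 0.21. Sema6a, of the same class, ranged from 6.54 to 15.6 CPM in DOX4X against 1.77 to 6.91 in PBS, which overlapped (log2 fold change 0.96, SE 0.41, edgeR adjusted p = 0.33). The flow cell term gave -0.022 (SE 0.76).

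Class 3 ligands differed from each other. Sema3b, a secreted semaphorin that binds neuropilins, stood at 14.8, 13.2, 11.1 and 12.1 CPM in PBS, at 13.4, 9.43 and 6.97 in DOX1X and at 8.75, 9.04, 10.1 and 8.72 in DOX4X. The DOX4X values lay below all PBS values (log2 fold change -0.48, SE 0.18, edgeR adjusted p = 0.27). DOX1X 3 had the lowest value of all, and with a flow cell term the log2 fold change was 0.23. Sema3c, which acts in heart and vessel development, stood at 2.74, 0.901, 2.65 and 2.602 CPM in PBS, at 0.636, 1.76 and 1.16 in DOX1X and at 0.1101, 1.87, 0.541 and 0.490 in DOX4X. PBS 2 was low and DOX4X 2 high for their groups. The difference from PBS was -1.56 in log2 units (SE 0.65, edgeR adjusted p = 0.32), and -2.53 without DOX4X 2. Sema3d had -0.86 (SE 0.38, edgeR adjusted p = 0.34) and Sema3g 0.72 (SE 0.31, edgeR adjusted p = 0.33).

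Sema4g, a transmembrane class 4 semaphorin, was near the floor in every group. Its values were 0.660, 0.167, 0.583 and 0.567 CPM in PBS, 0.783, 0.728 and 1.03 in DOX1X, and 0.743, 0.790, 1.14 and 1.09 in DOX4X. All 7 doxorubicin libraries lay above all 4 PBS libraries. The log2 fold change of DOX4X against PBS was 0.92 (SE 0.38, edgeR adjusted p = 0.32). The flow cell term gave 0.48. Sema7a, which signals through integrins and Plxnc1, had -0.57 (edgeR adjusted p = 0.40), and its PBS values spread from 16.9 to 44.1 CPM. The flow cell term gave 0.027 (SE 0.55).

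**Figure D2:**
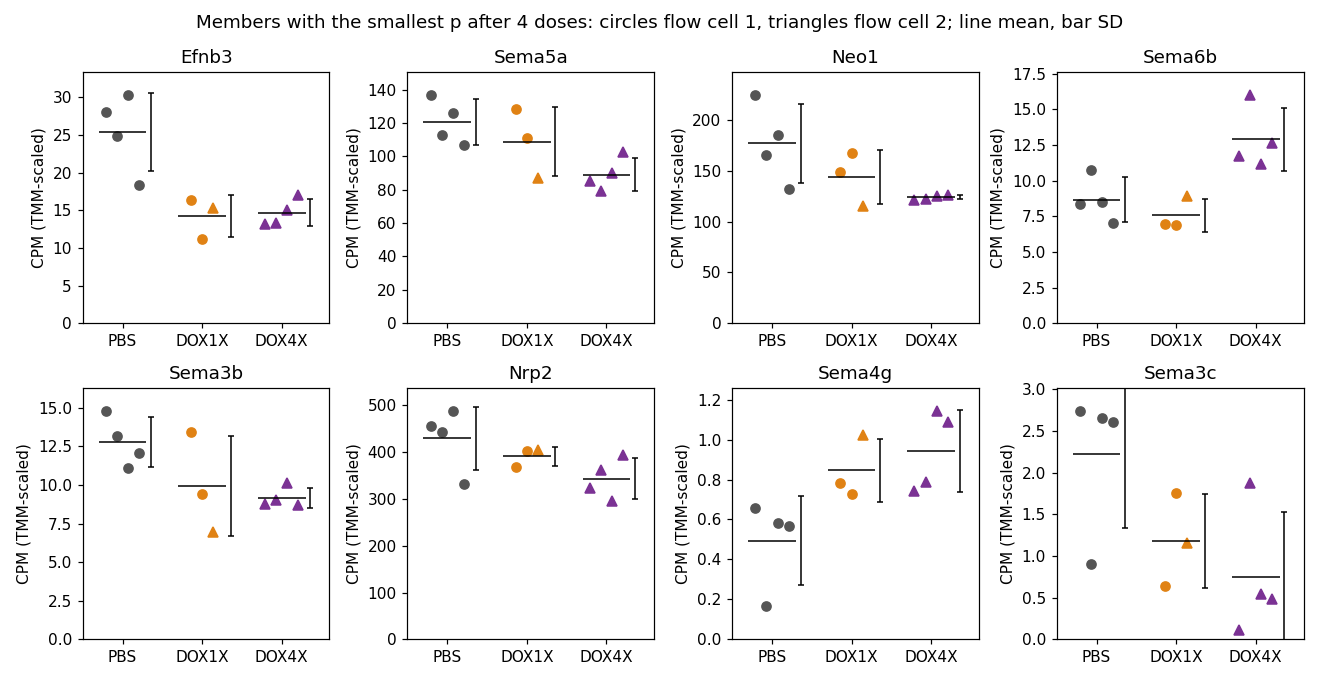
CPM of the 8 guidance genes with the smallest p in DOX4X against PBS, 1 point per library (circles flow cell 1, triangles flow cell 2) with the group mean as a line and the SD as a bar. For Efnb3 the 7 doxorubicin libraries lie below all PBS libraries, while for Neo1 and Sema5a the triangles, DOX1X 3 included, lie below all circles.

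Of 11 tested plexins and neuropilins 1, Nrp2, had an unadjusted p under 0.05 after 4 doses (9.09%, background 13.9%). Nrp2 stood at 456, 441, 487 and 332 CPM in PBS, at 367, 401 and 404 in DOX1X and at 323, 360.5, 294 and 393 in DOX4X. PBS 4 lay among the DOX4X values, so the groups overlapped, and the log2 fold change was -0.32 (SE 0.12, edgeR adjusted p = 0.28). Without PBS 4 it was -0.43, and the groups did not overlap. Nrp1 had 745 ± 75.2 CPM (SD, n = 4) in PBS and 702 ± 41.8 (n = 4) in DOX4X, a log2 fold change of -0.09 (0.037 with a flow cell term). None of the 9 tested plexins had an unadjusted p under 0.05 after 4 doses (background 13.9%). Their log2 fold changes lay between -0.26 and 0.15 apart from Plxnb3 (0.82), whose mean in PBS was only 0.320 CPM. With a flow cell term the 9 lay between -0.46 and 1.57 (Plxnb3, SE 1.20). Plxnb1, a receptor of Sema4d, was the steadiest member in PBS (coefficient of variation 3.09%).

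Like Neo1, the other tested netrin receptors did not pass the threshold after 4 doses. All 4 Unc5 receptors, which turn netrin into a repulsive signal and can trigger cell death when unbound, had negative log2 fold changes between -0.73 and -0.24, although Unc5b had 0.43 with a flow cell term. Unc5d, at 2.18 ± 0.835 CPM (SD, n = 4) in PBS and 1.32 ± 0.258 (n = 4) in DOX4X, had -0.73 (SE 0.32, edgeR adjusted p = 0.34). The value was -0.47 without PBS 1, -1.47 with a flow cell term and -0.35 with the blood-cell marker covariate. The 3 tested netrins had log2 fold changes from -0.10 to 0.32 (0.099 to 0.58 with a flow cell term), and Ntn4 spread from 14.4 to 40.3 CPM within PBS alone.

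Of 9 tested Eph receptors 1 had an unadjusted p under 0.05 after 4 doses (11.1%, background 13.9%), and of 5 A ephrins 0. The receptor was Epha3, an EphA receptor that prefers Efna5. Epha3 stood at 20.9, 16.6, 13.2 and 15.9 CPM in PBS, at 8.37, 19.95 and 13.1 in DOX1X and at 10.5, 14.1, 6.47 and 12.2 in DOX4X. The groups overlapped, and the log2 fold change of DOX4X against PBS was -0.62 (SE 0.28, edgeR adjusted p = 0.35). Efna5 itself had -0.16 (SE 0.08), Efna1, an ephrin induced by inflammatory cytokines, 0.34 (SE 0.17), and Ephb2, a receptor of B ephrins, -0.80 (SE 0.37) at 1.42 ± 0.631 CPM (SD, n = 4) in PBS, all 3 with edgeR adjusted p of 0.37 or more. The flow cell term gave -0.028 for Efna5, -0.14 for Efna1 and -0.034 for Ephb2, and the endothelial marker covariate gave 0.011 for Efna1. The most expressed Eph receptor, Ephb4, stood at 101 ± 13.9 CPM (SD, n = 4) in PBS and 90.5 ± 8.70 (n = 4) in DOX4X.

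**Figure D3:**
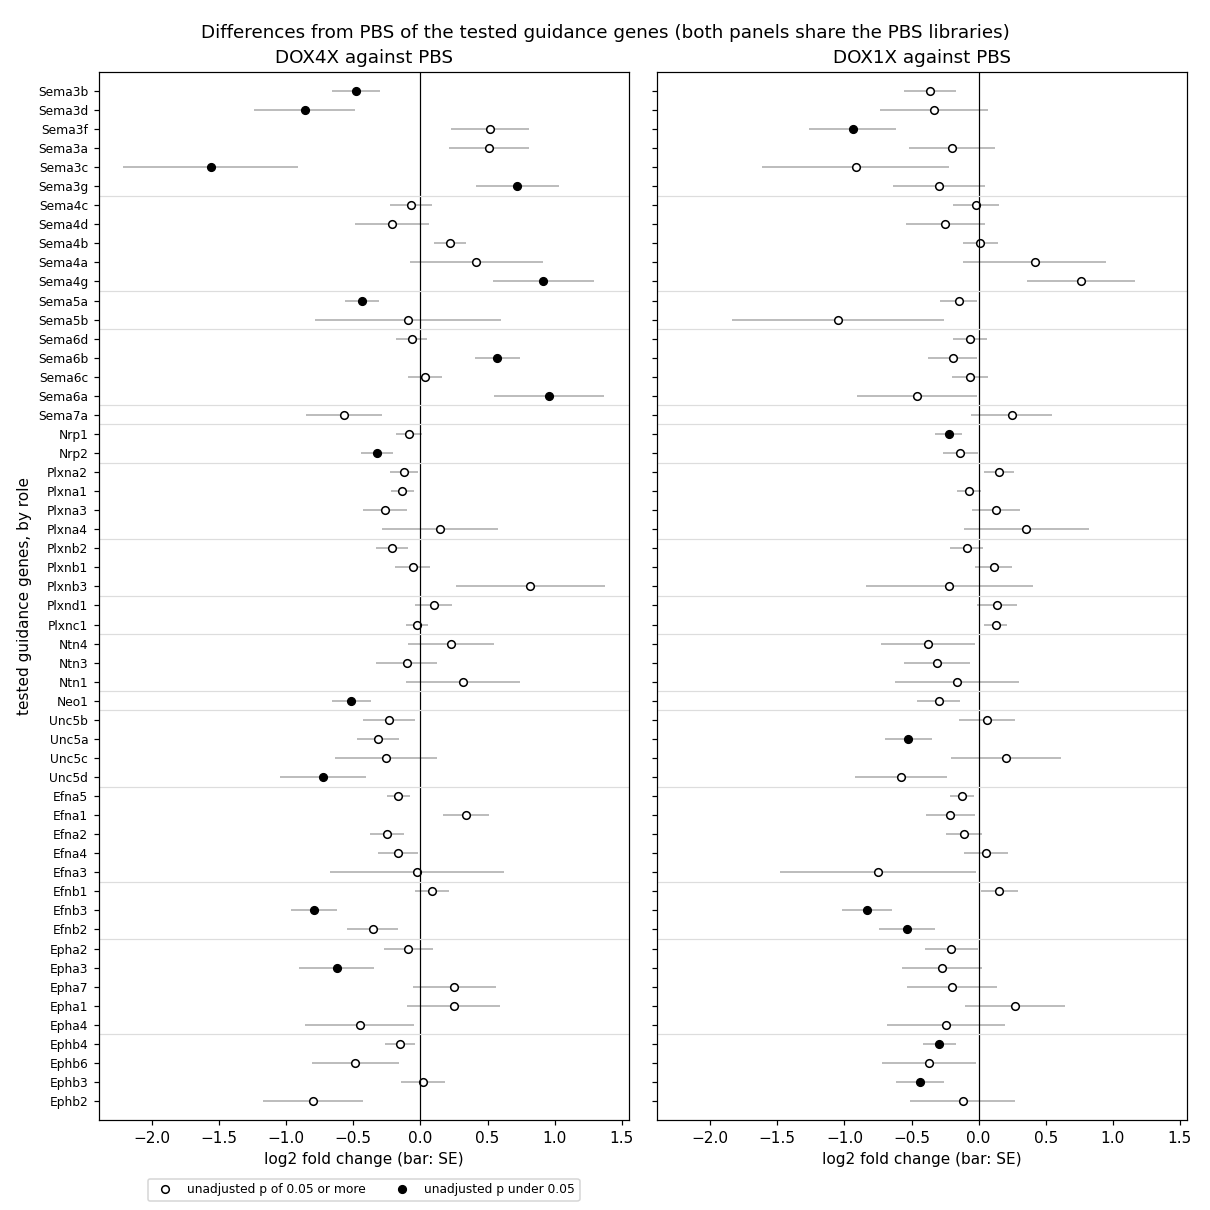
Log2 fold changes of the 54 tested guidance genes, by role, for DOX4X against PBS and DOX1X against PBS; bars are standard errors and filled points have an unadjusted p under 0.05. Both comparisons use the same PBS libraries, and Efnb3 lies at -0.79 and -0.83.

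After a single dose no guidance gene passed the threshold, and the 7 members with an unadjusted p under 0.05 were all lower than in PBS. They were the ligands Efnb3, Efnb2 and Sema3f and the receptors Unc5a, Ephb3, Ephb4 and Nrp1. With edgeR, 0 of 54 members were called, where 1 gene (0.00561%) was called in the whole table. The 7 members are 13% of those tested, against 3.74% of all genes that were lower at that p and 3.42% that were higher (7.16% in either direction). Groups did not overlap for 1 higher member (background 3.18%) and 2 lower members (background 3.82%). The median log2 fold change was -0.20 over the members and 0.01 over all genes. That of the members was -0.13 with a flow cell term and -0.06 with the endothelial marker covariate. All 22 endothelial markers were lower in DOX1X too. Without PBS 4 the median was -0.26 over the members and 0.013 over all genes. DESeq2 called 1 member, Efnb3 (41 genes, 0.23%, in all), and limma-voom called 0 (1 gene, 0.00561%, in all).

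Efnb3 differed from PBS by -0.83 in log2 units (SE 0.19, edgeR adjusted p = 0.52), from the values given above. Within flow cell 1, where DOX1X 1 and 2 meet the 4 PBS libraries, it was -0.89. Efnb2, the ephrin of arteries and of osteoclasts, stood at 17.0, 12.6, 14.01 and 10.6 CPM in PBS and at 8.34, 7.73 and 12.01 in DOX1X. DOX1X 3 overlapped PBS and the other two lay below it (log2 fold change -0.54, SE 0.21, edgeR adjusted p = 0.63). Its receptor Ephb4 stood at 109.8, 111, 100.01 and 81.0 CPM in PBS and at 74.7, 92.5 and 79.2 in DOX1X, with -0.29 (SE 0.12, edgeR adjusted p = 0.66). Ephb3, another B ephrin receptor, had -0.44 (SE 0.18, edgeR adjusted p = 0.65).

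Unc5a stood at 9.82, 10.8, 9.35 and 7.64 CPM in PBS and at 6.63, 5.88 and 7.10 in DOX1X, without overlap. Its log2 fold change was -0.52 (SE 0.17, edgeR adjusted p = 0.60), and a small stretch of its exons is shared with Hk3. Sema3f, a ligand of Nrp2 that repels endothelial cells, stood at 6.27, 6.01, 3.95 and 3.30 CPM in PBS and at 2.13, 2.09 and 3.42 in DOX1X. DOX1X 3 lay just above PBS 4, and the log2 fold change was -0.94 (SE 0.32, edgeR adjusted p = 0.60). Nrp1 stood at 776, 766, 803 and 635 CPM in PBS and at 714, 598 and 602 in DOX1X, with -0.22 (SE 0.10, edgeR adjusted p = 0.69). Its difference was -0.34 when blood-cell markers were a covariate and -0.18 with a flow cell term. For Nrp1, Sema3f, Efnb2 and Ephb4 the overlap of DOX1X with PBS came from PBS 4 alone. The share of all genes that overlap without PBS 4 was not computed. Sema4g, with 1 of the 8 smallest p values here, had 0.76 (SE 0.40, edgeR adjusted p = 0.73), 0.48 without PBS 2 and 1.1701 with the blood-cell marker covariate.

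Between the 2 regimens no member passed the threshold, and the 4 smallest p values belonged to semaphorins. Sema3f, Sema6a, Sema6b and Sema3g lay higher in all 4 DOX4X libraries than in all 3 DOX1X libraries, and Sema7a lay lower. With edgeR, 0 of 54 members were called, where 1 gene (0.00561%) was called in all. At an unadjusted p under 0.05 there were 9 members (background 4.36%): 7 were higher (background 2.23%) and 2 lower (background 2.13%). Groups did not overlap for 6 higher members (background 3.19%) and 1 lower member (background 2.79%). The members' median log2 fold change was -0.03, that of all genes 0.00. The former was 0.17 with a flow cell term, 0.18 within flow cell 2 and -0.15 with the endothelial marker covariate. DESeq2 called 2 members, Sema3f and Sema6b (28 genes, 0.157%, in all), and limma-voom called 0 (1 gene, 0.00561%, in all). The dose per injection, the number of injections and, except for DOX1X 3, the flow cell differ together here.

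Sema3f stood at 5.81, 10.6, 6.32 and 5.23 CPM in DOX4X, against 2.13, 2.09 and 3.42 in DOX1X, with PBS between and overlapping both. The difference was 1.46 in log2 units (SE 0.33, edgeR adjusted p = 0.89). Sema6a stood at 7.35, 15.6, 9.57 and 6.54 CPM in DOX4X and at 2.67, 2.85 and 5.44 in DOX1X, with 1.42 (SE 0.46, edgeR adjusted p = 0.89). DOX1X 3 was the highest of its group for both genes. Sema6b had 0.77 (SE 0.18, edgeR adjusted p = 0.89). Sema3g, a class 3 semaphorin made by vessel walls, stood at 1.07, 2.08, 1.32 and 2.04 CPM in DOX4X and at 0.783, 0.758 and 0.867 in DOX1X, with 1.02 (SE 0.34, edgeR adjusted p = 0.89). Within flow cell 2, against DOX1X 3 alone, the differences were 1.03 for Sema3f and 0.84 for Sema6a.

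Of the other members, Efna1 stood at 19.3, 29.7, 27.5 and 23.7 CPM in DOX4X and at 15.6, 14.6 and 21.1 in DOX1X. The groups overlapped at DOX1X 3, the log2 fold change was 0.55 (SE 0.19, edgeR adjusted p = 0.89), and within flow cell 2 it was 0.25. Sema7a stood at 22.2, 19.9, 20.2 and 16.2 CPM in DOX4X and at 47.5, 30.3 and 25.7 in DOX1X. Its log2 fold change was -0.81 (SE 0.30, edgeR adjusted p = 0.98), -0.51 without DOX1X 1 and -0.39 within flow cell 2. Ephb3 had 0.46 (SE 0.18) and, within flow cell 2, 0.70; Plxna2 had -0.27 (SE 0.11) and -0.11, both with an edgeR adjusted p of 1.00. Sema3a, which stood at 11.5, 16.2, 13.8 and 6.57 CPM in PBS, lay between 7.56 and 15.3 in DOX1X and between 12.6 and 22.6 in DOX4X. Its difference was 0.71 (SE 0.32), 1.09 without DOX1X 3 and 0.17 within flow cell 2.

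Endothelial markers were followed beside the guidance genes. The summed level of 22 of them was 231 to 960 CPM in PBS, 305 to 573 in DOX1X and 801 to 1489 in DOX4X. None of the 22 was called with edgeR. The smallest edgeR adjusted p was 0.89 for DOX4X against DOX1X, 0.21 for DOX4X against PBS and 0.74 for DOX1X against PBS. All 22 were higher in DOX4X than in DOX1X, each at an unadjusted p under 0.05 (100%, background 2.23%, median log2 fold change 1.44). Against PBS, 22 of 22 were higher in DOX4X (8 at that p, 36.4%, background 6%, median 0.78). In DOX1X 22 of 22 were lower (0 at that p, background 3.74%, median -0.61). In bulk samples more cells of a type and more RNA per cell cannot be told apart. With the mean log2 level of these markers as a covariate, the DOX4X against DOX1X difference was 0.05 for Sema6a, 0.08 for Efna1, 0.36 for Sema3g, 0.37 for Sema6b, 0.66 for Sema3f, 0.30 for Ephb3 and -0.16 for Sema3a. The marker sums of DOX1X and DOX4X did not overlap, so this covariate can hardly be separated from the regimen. The part of endothelial content in these differences was not tested. Against PBS in the same fit DOX4X had 0.08 for Sema6a, 0.31 for Sema3g and 0.30 for Sema6b. Efnb3 had -0.92 after 4 doses and -0.76 after 1 in that fit, and Neo1, Sema5a and Nrp2 had -0.63, -0.39 and -0.48 after 4.

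**Figure D4:**
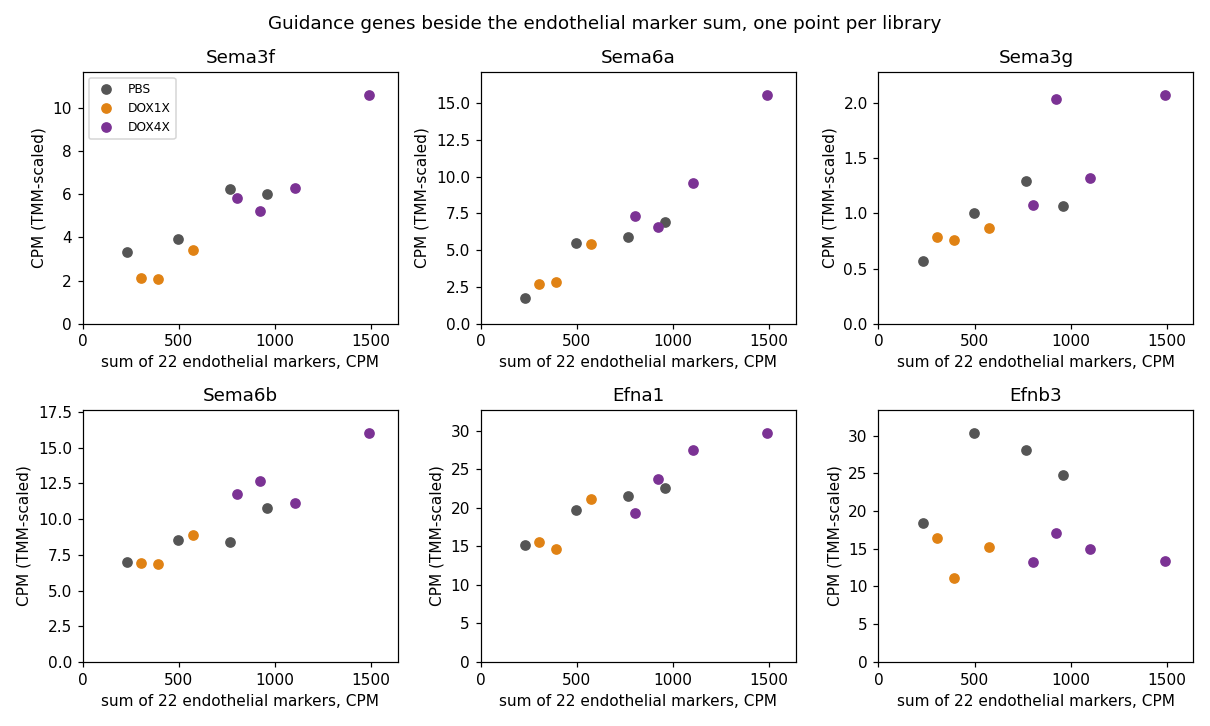
CPM of Sema3f, Sema6a, Sema3g, Sema6b, Efna1 and Efnb3 against the summed CPM of 22 endothelial markers, 1 point per library coloured by group. DOX4X 2, with the highest marker sum (1489 CPM), also has the highest Sema3f (10.6 CPM), Sema6a (15.6 CPM) and Sema6b (16.0 CPM). The same library has the highest sums of B lineage (273 CPM), monocyte and macrophage (587 CPM) and T and natural killer cell markers (46.7 CPM).

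Of the other marker lists, 1 gene was called, an osteoblast lineage gene in DOX4X against PBS (edgeR adjusted p = 0.037). The background there was 0.146% of genes. The remaining lists had 0 calls in all 3 comparisons. Library sums of the erythroid, neutrophil and mural lists overlapped between the groups, so the directions below are descriptive. Against PBS, 15 of 15 B lineage markers and 14 of 14 erythroid markers were higher in DOX4X (medians 1.14 and 1.04) and in DOX1X (medians 0.79 and 0.93). Summed B lineage levels were 46.7 to 103 CPM in PBS, 92.6 to 133 in DOX1X and 101 to 273 in DOX4X. Of 15 osteoblast lineage genes 14 were lower in DOX4X than in PBS (median -0.40). The sum of the list was 20505 to 35888 CPM in PBS, 20274 to 27337 in DOX1X and 16248 to 20553 in DOX4X. The lowest sums of PBS (PBS 4) and DOX1X (DOX1X 3, on flow cell 2) lay within the DOX4X range. The 9 Schwann cell markers analysed summed to 281 to 370 CPM in PBS, 293 to 332 in DOX1X and 211 to 251 in DOX4X. In DOX4X 5 were lower than in PBS (4 at an unadjusted p under 0.05, 44.4%, background 7.85%) and 4 higher (median -0.41). Neutrophil markers were higher in DOX1X than in PBS for 14 of 14 (median 1.61) and in DOX4X for 11 of 14 (median 0.57), and monocyte and macrophage markers for 8 of 14 in each (medians 0.05 and 0.17). Mural markers were lower in DOX1X for 12 of 12 (median -0.55) and higher in DOX4X for 10 of 12 (median 0.17). T and natural killer cell markers were higher for 15 of 15 in both (medians 0.70 and 1.07). The 15 genes of marrow stromal identity had medians of -0.01 in DOX1X and -0.06 in DOX4X. The part of osteoblast lineage and Schwann cell levels in the lower values of Efnb3, Neo1 and Sema5a was not tested.

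Genes that act downstream of these receptors gave no call either. Of 64 pathway genes listed (small GTPases and their regulators, collapsin response mediators, adaptors, kinases, and other ligands of neogenin and Unc5), 59 were tested and 0 passed in any of the 3 comparisons. After 4 doses 12 of 54 signal transduction genes had an unadjusted p under 0.05 against PBS, which is 22.2% (background 13.9%). Of these 2 were higher (3.7%, background 6%) and 10 lower (18.5%, background 7.85%), and over the list 18 were higher and 36 lower (median -0.09). Of the 5 tested ligands 1 had such a p: Flrt2, a membrane protein that binds Unc5 receptors. Flrt2 stood at 143, 105, 151 and 132 CPM in PBS, at 81.4, 91.0 and 94.3 in DOX1X and at 88.2, 82.2, 58.8 and 63.0 in DOX4X. All 7 doxorubicin libraries lay below all PBS libraries. Its log2 fold change after 4 doses was -0.86 (SE 0.14, edgeR adjusted p = 0.051), and after 1 dose -0.58 (SE 0.16, edgeR adjusted p = 0.58).

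The next 3 pathway genes act inside the cell. Dpysl3, a collapsin response mediator that binds the cytoskeleton, stood at 408 ± 43.2 CPM (SD, n = 4) in PBS and 318 ± 16.6 (n = 4) in DOX4X, differing by -0.36 in log2 units (SE 0.09, edgeR adjusted p = 0.14). Farp1, an exchange factor that acts with A plexins, had -0.30 (SE 0.08, edgeR adjusted p = 0.15), with 27.3 to 32.6 CPM in DOX4X and 34.8 to 39.4 in PBS. Chn1, a Rac GTPase-activating protein that acts below EphA4, had -0.64 (SE 0.18, edgeR adjusted p = 0.18), at 21.6 ± 3.95 CPM (SD, n = 4) in PBS and 13.9 ± 2.39 (n = 4) in DOX4X. With a flow cell term Dpysl3 had -0.12 and Chn1 -1.24, and with the blood-cell marker covariate Chn1 had -0.41.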

How the data were processed

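Poly(A) RNA of tdTomato-sorted cells was made into cDNA with the SMART-Seq v4 Plus kit, per the labels' protocols. The authors deposited raw, unscaled read counts by gene for the 11 libraries in 1 table. STAR 2.7.9a, featureCounts 2.0.1, SAMtools 1.17, Trim Galore 0.6.6, MultiQC 1.7 and FastQC 0.11.5 were used, per the submitters' processing notes, with the GRCm39 build. Which annotation and strand setting were used, and how multi-mapping reads were handled, is not given in the sources used here.

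Low genes were removed with filterByExpr (edgeR 4.0.16, R 4.3.3), leaving 17838, which held at least 99.9% of each library's counts. One fit of all 11 libraries used group means and TMM factors, and 3 differences were tested two-sided with the quasi-likelihood test. P values were adjusted over all tested genes (Benjamini-Hochberg, 0.05). Levels are TMM-scaled CPM computed here. Standard errors were derived from the F statistic of each fold change. "Background" is the share of all tested genes that met the same criterion. The labels number the mice as biological replicates.

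The members, gene lists, tests and alternatives were chosen with earlier results of these data known. Named members are the 8 with the smallest p per comparison, 28 key members and the highest of each role; 4 pathway genes are named by p. Sema3d, Unc5d, Epha3 and Plxnb3 were added after their values were seen. Alternatives were RLE and upper quartile factors, no filter and a strict filter (5 CPM in 3 libraries), a robust prior, the compared groups alone, the replicate block, limma-voom (limma 3.58.1), DESeq2 1.42.0, a threshold of 0.10, each library left out, a flow cell term, fits within a flow cell, and covariates for blood-cell markers (erythroid, B lineage, neutrophil and monocyte lists) and for endothelial markers (mean log2 CPM, prior count 2). The procedure was tested on simulated data. Replicates of a group were compared, and no pair agreed within sampling noise.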

Additional observations from a re-analysis of the deposited data

Results flagged for a closer look

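A single library stood far from the others of its group for 4 of 72 groups looked at (36 named members in PBS and in DOX4X, each with 4 libraries), by Dixon's criterion at the 95% level. Chance alone gives about 1 in 20. Efna5 stood at 54.1 CPM in PBS 2, while the other PBS libraries lay between 43.8 and 44.9. Sema3c stood at 0.901 CPM in PBS 2, against 2.602 to 2.74 in the others. Efnb2 stood at 13.5 CPM in DOX4X 2, against 9.48 to 9.88. Ntn1 stood at 7.46 CPM in DOX4X 2, against 2.15 to 2.65.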

How the results depend on the processing

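The count of guidance genes past the threshold after 4 doses (0) became 1 with the replicate block (Efnb3, edgeR adjusted p = 0.038), 4 with DESeq2 and 0 to 1 with a library left out (1 without PBS 4, Efnb3). Calls over all genes rose too, from 26 (0.146%) to 68 (0.384%) with the block, 599 (3.36%) with DESeq2 and 80 (0.451%) without PBS 4. After 1 dose DESeq2 gave 1 (Efnb3), and for DOX4X against DOX1X it gave 2 (Sema3f and Sema6b). The pathway genes after 4 doses (0) became 1 with upper quartile factors, no filter, the robust prior, limma-voom or a threshold of 0.10, and 6 with DESeq2 (Arhgef11, Chn1, Dpysl3, Farp1, Flrt2 and Rhoa). Calls over all genes were 24 (0.135%), 26 (0.105%), 25 (0.14%), 56 (0.314%), 64 (0.359%) and 599 (3.36%) in that order. With a library left out the pathway genes gave 0 to 1 (1 without DOX1X 3, Flrt2, with 47 genes, 0.257%, in all). After 1 dose they gave 1 within flow cell 1 (Mical2, with 5 genes, 0.0287%, in all). The 34 log2 fold changes followed here were picked by a small p in the main fit, and none passed the threshold there. The alternatives refit the same counts, so agreement in direction was likely beforehand, and the same side of the threshold means not called. Of 793 alternative values of the 34, 771 kept their direction and side of the threshold, 18 kept their direction and passed it, and 4 took the other direction. These 4 were, with a flow cell term, Sema5a (0.022, SE 0.21), Sema3b (0.23, SE 0.29) and Sema6a (-0.022, SE 0.76) after 4 doses, and, with the endothelial marker covariate, Sema3a (-0.16) in DOX4X against DOX1X. Over all 54 members, 20 took the other sign with the flow cell term after 4 doses, 5 after 1 dose and 16 between the regimens. Fewer genes or libraries enter some alternatives; otherwise the cause was not tested. The labels do not say that a replicate number marks a shared litter or day. Of 9 same-numbered pairs 2 had deviations correlated over 0.1 (range -0.12 to 0.35), so the numbers were not used to pair mice. The block, which leaves PBS 4 out, moved Nrp2 after 4 doses to -0.50 and Sema3g to 0.38. Depth limits Sema4g, Plxnb3 and the 6 untested members, which lie near 1 CPM or below. It also limits Sema3c (0.11 to 2.74 CPM over all libraries), Sema3g (0.57 to 2.08), Ephb2 (0.57 to 1.95) and Unc5d (0.96 to 3.25). Some tested members given only by counts and ranges were as low or lower, for example Efna3 (0 to 0.47 CPM).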
